A study of Mus musculus with 4 samples.

Results

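The genes described here encode proteins of the small subunit processome and of 40S ribosomal subunit assembly. They were chosen by name, from a list of 42 genes written without a threshold on any measured value, and all 42 were among the 32230 gene symbols of the table. The list was written with earlier results of these data known. RNA-seq of mRNA was run on 4F2A mouse embryonic fibroblasts, which were taken from male, homozygous mid-gestation embryos. The recorded embryo age was the same for every library of both groups. In 4F2A cells doxycycline switches on Oct4, Sox2, Klf4 and Myc, the factors that reprogram fibroblasts towards pluripotency. Both groups received doxycycline (2 µg/mL) from day 0 and were harvested on day 2, so no group without doxycycline entered the comparison. The DMSO group received the vehicle and the other group CX-5461, known as an inhibitor of RNA polymerase I, each for 1 h on day 0. The dose of CX-5461 is not given in the sources used here. Each group had 2 libraries, numbered 2 and 3.

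The small subunit processome is the large nucleolar particle that forms on the nascent ribosomal RNA precursor and prepares the small subunit rRNA for release. Its first modules, UTP-A and UTP-B, bind the leader of the transcript. The U3 snoRNA, carried by box C/D proteins, base-pairs with the precursor, and helicases, nucleases and GTPases then reshape the particle. Late factors accompany the released pre-40S particle to the cytoplasm. Because CX-5461 acts on the polymerase that makes the precursor, the comparison asked whether messages of the proteins that bind the precursor differed on day 2, after an exposure of 1 h on day 0. Neither rRNA synthesis nor protein was measured.

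The 42 genes had 342 to 4050 read pairs each in a library, as recovered from the deposited values, so that counting error alone was at most 5.41%. The libraries of a group are described only as parallel replicates, so a p-value here covers the spread between these libraries only, and that spread may be technical. DMSO replicate 3 stood apart in composition, with 15.3% of its TPM from mitochondrially encoded genes against 9.20% to 9.96% in the other libraries. TPM, given as transcripts in every 1000000, is a share of the library total, so a larger mitochondrial share lowers all other values. All 10 fibroblast markers were detected in every library (summed TPM 13369 and 10685 with DMSO, 10119 and 9583 with CX-5461), and 5 of the 10 passed the test as lower with CX-5461, against 8.21% of all tested genes. Of the 10, 9 had a difference below zero and 8 had both CX-5461 libraries below both DMSO libraries. Of 4 skeletal muscle markers, Myod1 and Myog were at 0 in every library and Pax7 was at 0 with DMSO. Des, the muscle intermediate filament desmin, was at 24.1 and 20.2 TPM with DMSO and rose to 33.4 and 33.2 TPM with CX-5461 (log2 difference 0.57, limma adjusted p = 0.0229). Summed markers of other types lay at 28.0 and 28.9 TPM with DMSO and 14.0 and 21.7 with CX-5461 for keratinocytes, at 50.9 and 50.4 against 57.9 and 57.0 for endothelium, and at 43.9 and 66.6 against 60.05 and 76.0 for blood and macrophages. The endothelial sum held called genes in both directions: Kdr rose from 6.16 and 6.42 to 23.8 and 24.1 TPM (log2 difference 1.78, limma adjusted p = 0.000729), and Tek fell from 44.3 and 43.7 to 33.9 and 32.6 TPM (-0.39, adjusted p = 0.0299). Pecam1 and Cdh5 stayed under 0.4 TPM in every library. Most of the keratinocyte sum was Krt14, at 26.4 and 26.9 TPM with DMSO and 10.8 and 18.5 TPM with CX-5461. Krt5 went the other way, from 1.08 and 1.30 to 2.00 and 2.51 TPM, and neither passed. Krt15, Trp63 and Col17a1 stayed under 1 TPM in every library. Of the blood and macrophage markers, Adgre1 rose from 4.48 and 4.99 to 10.4 and 8.98 TPM (0.90, limma adjusted p = 0.0137). The glial markers summed to 50.7 and 51.0 TPM against 51.9 and 70.1. The part of other cells in the results below was not tested, and in bulk RNA fewer cells of a type and less RNA per cell cannot be told apart.

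Most of the processome messages did not pass the test for a difference, and their summed level overlapped between the groups. Their TPM summed to 2335 and 2206 with DMSO and to 2254 and 2334 with CX-5461. All 42 passed the filter of a mean of at least 1 TPM and were tested with limma on log2(TPM + 1), with p-values adjusted over 14621 genes. At an adjusted p under 0.05, 4 genes were higher with CX-5461 (Rrp36, Pwp2, Utp20 and Pno1), 2 were lower (Nop56 and Nop58) and 36 did not pass. Over all tested genes 11.6% were called higher and 8.21% lower, 19.8% together, so 6 of 42 (14.3%) lay near the background. The median log2 difference (CX-5461 minus DMSO) was -0.017 over the 42 genes and 0.068 over all tested genes. Rescaling of the libraries changed this split: with libraries rescaled after removal of mitochondrially encoded and the 20 most abundant genes, 5 were higher and 8 lower, where 11.1% of all tested genes were called higher and 11.6% lower.

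By its estimate, none of the 42 genes differed by 2-fold, though the 95% interval of Rrp36 ran from 0.58 to 1.07 on the log2 scale. The differences ran from -0.67 to 0.82 on the log2 scale, and 38 of 42 (90.5%) lay within 0.5 of zero, against 76.4% of all tested genes. At least 1 on that scale was reached by 7.09% of all tested genes and by 0 of the 42. Within 0.5 of zero lay 93.1% of the 29 other 40S and processome factors tested and 98% of 49 assembly factors of the 60S subunit. Mean levels reached down to 14.9 TPM in the 42 genes and to 1.00 TPM over all tested genes. These shares were thus not matched for level. Of the 42, 16 had an unadjusted p under 0.05 (38.1%, against 35.8% of all tested genes). The 95% intervals had a median half-width of 0.25, and for 41 of 42 genes they lay inside -1 to 1. For the 36 that did not pass, the interval bounds reached -0.71 and 0.86 at the most, so smaller differences could have been missed. Both CX-5461 libraries lay on the same side of both DMSO libraries for 25 genes, 11 of them higher and 14 lower, against 64.5% of all tested genes (38.2% higher and 26.3% lower).

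**Figure D1:**
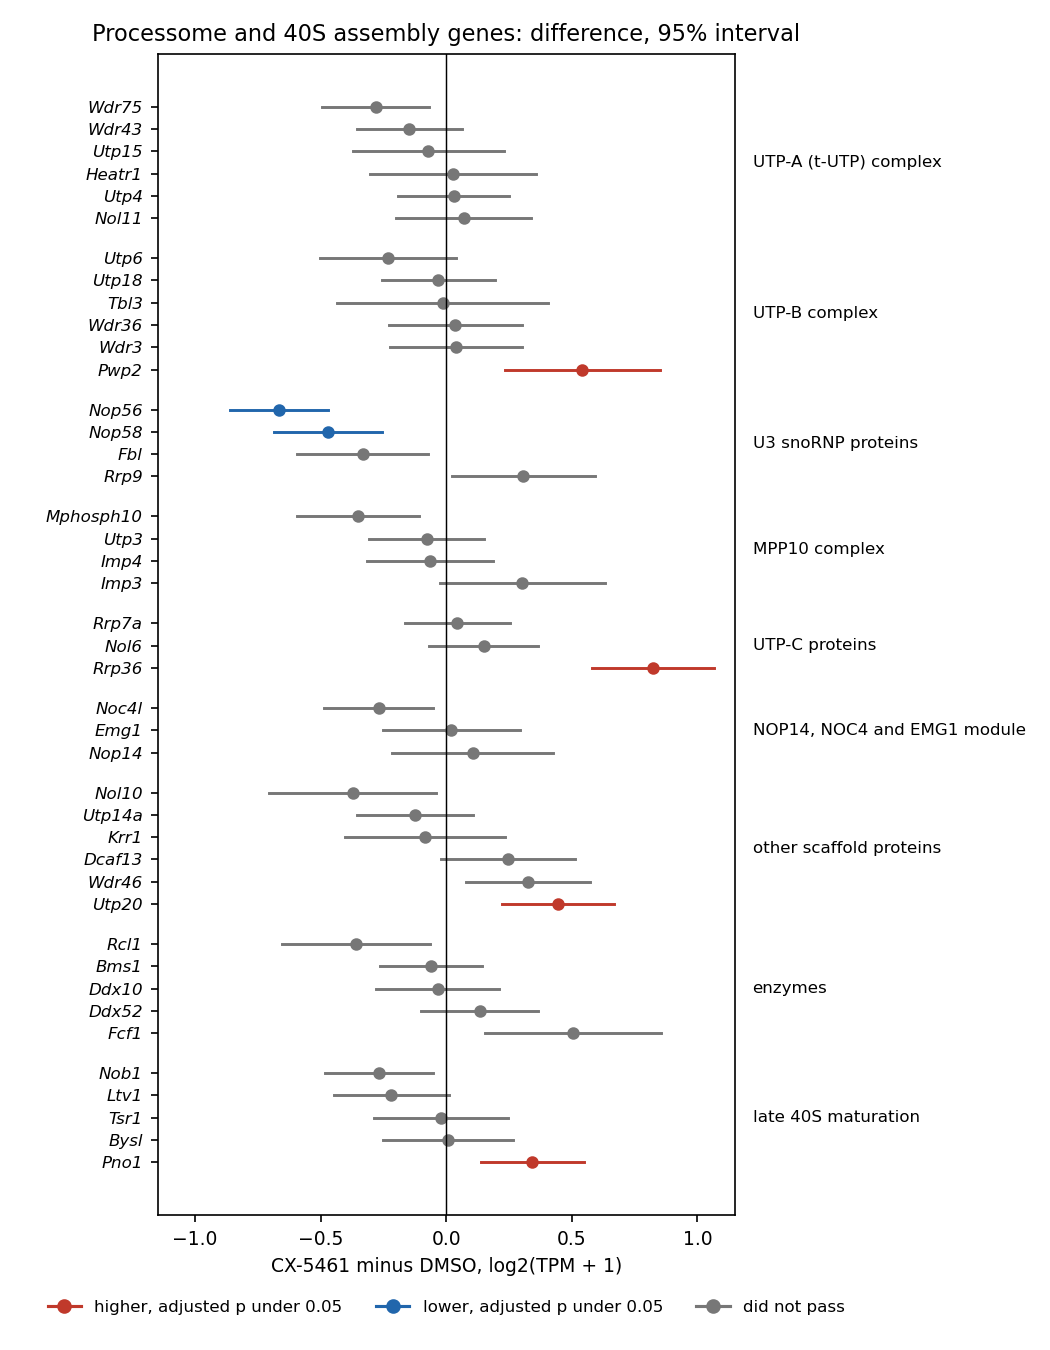
Difference between CX-5461 and DMSO for each of the 42 genes (points, log2(TPM + 1) scale) with its 95% interval from limma (lines), grouped by the role of the protein. Red and blue genes passed at an adjusted p under 0.05, with Rrp36 highest at 0.82 and Nop56 lowest at -0.67, and most grey intervals span zero.

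**Figure D2:**
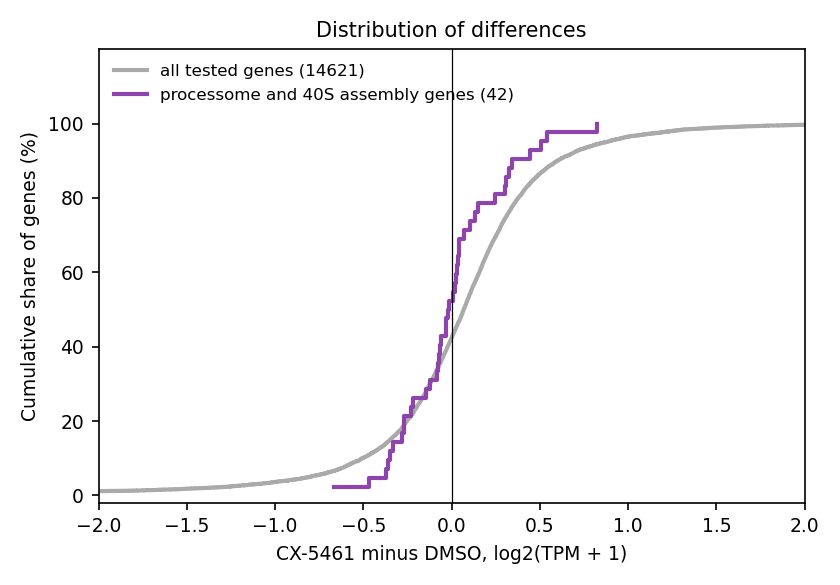
Cumulative share of genes (vertical axis, %) by difference (horizontal axis, log2(TPM + 1), genes beyond -2 or 2 not drawn) for the 42 processome and 40S assembly genes (purple) and all 14621 tested genes (grey). The purple curve is the steeper, with 90.5% of its genes within 0.5 of zero against 76.4%. The curves were not matched for expression level. The share was 93.1% for other 40S and processome factors and 98% for 60S assembly factors (not drawn).

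Because Nop56 and Nop58 fell while Rrp36, Pwp2, Utp20 and Pno1 rose, their promoters are printed to show what sequence lies at each. The RefSeq promoter table (GRCm38.p6, the assembly also called mm10, 250 bases before to 50 after the first listed start) matched 35 of the 42 genes, that is all but Tbl3, Utp6, Wdr36, Fbl, Nol6, Dcaf13 and Fcf1. The stretches below end before the annotated transcript and run 5′ to 3′, and capitals mark CCGGAA, the core of ETS factor sites, or its reverse complement TTCCGG.
Nop56, chr2:130274162-130274411, plus strand: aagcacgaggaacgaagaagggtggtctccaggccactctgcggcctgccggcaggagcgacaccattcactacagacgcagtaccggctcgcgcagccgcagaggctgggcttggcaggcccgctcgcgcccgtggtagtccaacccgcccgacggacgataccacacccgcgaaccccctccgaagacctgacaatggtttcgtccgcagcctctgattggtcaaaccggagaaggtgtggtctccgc
Nop58, chr1:59684756-59684970, plus strand: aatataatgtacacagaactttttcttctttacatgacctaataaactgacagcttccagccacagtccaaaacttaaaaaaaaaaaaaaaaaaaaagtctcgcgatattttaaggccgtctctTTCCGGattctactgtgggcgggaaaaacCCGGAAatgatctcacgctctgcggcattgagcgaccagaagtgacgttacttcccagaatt
Rrp36, chr17:46674353-46674576, minus strand: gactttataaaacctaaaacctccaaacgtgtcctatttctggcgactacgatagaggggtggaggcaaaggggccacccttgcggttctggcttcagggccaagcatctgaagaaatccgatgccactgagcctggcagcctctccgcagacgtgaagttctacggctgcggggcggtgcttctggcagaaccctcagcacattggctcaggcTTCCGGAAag
Pwp2, chr10:78185150-78185399, minus strand: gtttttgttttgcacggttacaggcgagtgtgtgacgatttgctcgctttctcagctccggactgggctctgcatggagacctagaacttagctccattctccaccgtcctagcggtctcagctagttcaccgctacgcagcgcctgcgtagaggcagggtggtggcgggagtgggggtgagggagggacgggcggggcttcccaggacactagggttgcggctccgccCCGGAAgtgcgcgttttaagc
Utp20, chr10:88826815-88827064, minus strand: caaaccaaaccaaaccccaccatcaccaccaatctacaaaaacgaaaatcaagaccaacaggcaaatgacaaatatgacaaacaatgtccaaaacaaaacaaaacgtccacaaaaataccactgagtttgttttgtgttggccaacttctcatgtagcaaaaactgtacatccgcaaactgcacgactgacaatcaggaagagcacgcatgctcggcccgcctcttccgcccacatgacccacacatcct
Pno1, chr11:17211590-17211839, minus strand: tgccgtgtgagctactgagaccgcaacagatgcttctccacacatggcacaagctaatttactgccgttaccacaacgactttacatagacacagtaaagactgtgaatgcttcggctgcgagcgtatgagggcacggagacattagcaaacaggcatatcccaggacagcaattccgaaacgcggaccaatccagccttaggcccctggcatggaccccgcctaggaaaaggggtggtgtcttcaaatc
Nop58 and Rrp36 held 2 matches each, which overlap in Rrp36, Pwp2 held 1, and Nop56, Utp20 and Pno1 held 0. Matches thus stood before 1 of the 2 genes that fell and 2 of the 4 that rose. The G+C share was 65.2% for Nop56, 61.2% for Pwp2, 56.2% for Rrp36, 52.4% for Pno1, 44.8% for Utp20 and 40% for Nop58.

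The E-box CACGTG, the binding motif of MYC, lay within the 300-base window of 11 of 35 processome genes (31.4%) and of 7.24% of 27025 promoters of that length. The genes were Utp4, Nol11, Wdr43, Utp18, Imp4, Rrp7a, Utp20, Wdr46, Pno1, Ltv1 and Tsr1. Of the 6 genes that passed, Utp20 and Pno1 held it, both with its first base at position 38 after the start, and both rose. The 30 bases around it are shown with the E-box in capitals.
Utp20, chr10:88826765-88826794, minus strand: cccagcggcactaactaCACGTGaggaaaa
Pno1, chr11:17211540-17211569, minus strand: tgcgctgtacaaccacgCACGTGttcctct
In the other 9 genes with the motif the difference ran from -0.22 (Ltv1) to 0.33 (Wdr46) and none passed. CCGGAA, on either strand, lay in 21 of 35 windows (60%) against 15.2% of all promoters. The G+C-rich GGGCGG lay in 25 (71.4% against 35.9%) and CCAAT in 19 (54.3% against 37.9%). TATAAA lay in 2 (5.71% against 14.2%) and CATGTG in 6 (17.1% against 14.1%). These 6 motifs were searched on both strands, and a match is a description of the sequence only. The 27025 promoters include genes that were not tested here, and they were not matched for expression level or G+C share.

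Among the protein partners of the U3 snoRNA, the box C/D core genes Nop56 and Nop58 fell, and Fbl and Rrp9 did not pass. Nop56, a core protein that box C/D particles share and the second most abundant message of the 42 with DMSO, stood at 125 and 122 TPM in DMSO replicates 2 and 3 and at 77.2 and 77.6 TPM in CX-5461 replicates 2 and 3. The groups lay well apart, with a spread in each of only a few TPM. Nop56 fell by 37.3% (log2 difference -0.67, SE 0.079, limma adjusted p = 0.00464). Nop58, the partner that pairs with Nop56 in the same core, stood at 41.5 and 40.5 TPM with DMSO and at 29.1 and 29.5 TPM with CX-5461. It fell by 28.5%, with 2 CCGGAA matches before its start where Nop56 had 0 (log2 difference -0.47, SE 0.087, adjusted p = 0.0182). The other proteins of this particle are given next, chosen after their values were seen. Fbl, which encodes fibrillarin, the methyltransferase of box C/D particles, was at 70.2 and 71.8 TPM with DMSO and at 60.9 and 51.8 TPM with CX-5461 (difference -0.33, adjusted p = 0.0794). The groups did not overlap, yet Fbl did not pass. The table also lists Fbl-ps2, a pseudogene of Fbl, so reads could be split between them. Snu13, the small protein that nucleates the core and no member of the 42, was at 90.0 and 90.3 TPM with DMSO and 75.4 and 81.4 TPM with CX-5461 (difference -0.20, adjusted p = 0.155). Rrp9, which binds U3 and no other box C/D RNA, was at 42.2 and 38.3 TPM with DMSO and at 46.0 and 54.3 TPM with CX-5461 (difference 0.31, adjusted p = 0.119). Its libraries were the higher ones with CX-5461, opposite to Nop56 and Nop58, but the difference between these genes was not tested.

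The UTP-C proteins join the particle after its first modules and hold its centre. Rrp36 had the largest difference of the 42. It stood at 40.05 and 35.6 TPM with DMSO and at 65.8 and 69.4 TPM with CX-5461. Both CX-5461 values lay well above both DMSO values, and the mean rose by 78.6% (log2 difference 0.82, SE 0.098, limma adjusted p = 0.00474). Nol6, the large scaffold of this module, was at 63.1 and 61.8 TPM with DMSO and 66.6 and 72.2 TPM with CX-5461 (difference 0.15, adjusted p = 0.277). Rrp7a, its binding partner, had a difference of 0.044. Neither passed, so Rrp36 was the sole called gene among these 3.

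UTP-B is a complex of 6 WD-repeat and helical-repeat proteins that follows UTP-A onto the leader of the precursor. Pwp2, one of its WD-repeat subunits, was at 37.2 and 30.1 TPM with DMSO and at 47.4 and 51.0 TPM with CX-5461. It rose by 46.2% (log2 difference 0.54, SE 0.12, limma adjusted p = 0.0340). Its partners did not pass. Utp6 was at 54.2 and 50.5 TPM with DMSO and at 41.0 and 48.1 TPM with CX-5461 (difference -0.23, adjusted p = 0.194). Wdr3 was at 37.6 and 32.6 TPM and at 35.0 and 37.0 TPM, with overlapping groups (difference 0.039, adjusted p = 0.822). Wdr36 (0.035), Tbl3 (-0.013) and Utp18 (-0.031) lay close to zero. With DMSO the messages of these 6 subunits spanned only 32.1 TPM (Tbl3) to 52.4 TPM (Utp6) on average.

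UTP-A, also called t-UTP, is the first module on the precursor, and several of its subunits are known to be needed for transcription of ribosomal DNA as well. None of its 6 genes passed, and 5 had overlapping groups or differences under 0.2 in size. Wdr75 was at 48.0 and 47.8 TPM with DMSO and at 38.2 and 40.2 TPM with CX-5461 (difference -0.28, SE 0.086, adjusted p = 0.0733). Wdr43 was at 79.6 and 79.5 TPM with DMSO and at 69.3 and 74.3 TPM with CX-5461 (difference -0.15, adjusted p = 0.268). In both genes the CX-5461 libraries were the lower ones. Nol11, a subunit of animal cells, was at 32.5 and 29.5 TPM and at 30.6 and 34.6 TPM, with overlapping groups (difference 0.069, adjusted p = 0.683). Utp4 (0.029), Heatr1 (0.027) and Utp15 (-0.072) also overlapped. Heatr1 is the large helical-repeat subunit of the module, and its interval ran from -0.30 to 0.36.

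The MPP10 complex bridges the U3 snoRNA and the precursor. Its name-giving subunit Mphosph10 was at 33.5 and 37.3 TPM with DMSO and at 27.6 and 27.5 TPM with CX-5461 (difference -0.35, SE 0.098, adjusted p = 0.0587). The groups did not overlap, and the gene lay just outside the threshold. Imp3, a small U3-binding protein, was at 138 and 107 TPM with DMSO and 147 and 153 TPM with CX-5461 (difference 0.30, adjusted p = 0.165). The DMSO libraries differed by more from each other than the CX-5461 libraries did. With 1 library left out the difference of Imp3 ran from 0.12 to 0.48, and without DMSO replicate 2 it passed as higher (adjusted p = 0.0225). Its partner Imp4 (-0.065) and Utp3 (-0.077), which binds the complex, had overlapping groups.

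In the module of Nop14, Noc4l and Emg1, no gene passed. Noc4l was at 50.4 and 50.9 TPM with DMSO and at 40.3 and 43.3 TPM with CX-5461 (difference -0.27, SE 0.088, adjusted p = 0.0860). Nop14, which binds both Noc4l and Emg1, was at 84.0 and 102 TPM with DMSO and 92.4 and 107 TPM with CX-5461, with overlapping groups (difference 0.10, adjusted p = 0.602). Emg1, a methyltransferase of the small subunit rRNA, had a difference of 0.021.

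Among the other scaffold proteins 1 of 6 passed. Utp20, a very long helical-repeat protein whose gene holds an E-box just after its start (printed with that of Pno1), was at 58.4 and 53.9 TPM with DMSO and at 74.6 and 78.8 TPM with CX-5461. It rose by 36.6% (log2 difference 0.44, SE 0.090, limma adjusted p = 0.0238). Wdr46 was at 51.9 and 57.0 TPM with DMSO and 64.9 and 72.0 TPM with CX-5461 (difference 0.33, adjusted p = 0.0736). Nol10 was at 46.1 and 53.5 TPM with DMSO and 42.3 and 34.4 TPM with CX-5461 (difference -0.37, adjusted p = 0.109). The WD-repeat genes Wdr46 and Nol10 thus stood on opposite sides of zero, each with groups that did not overlap. Dcaf13 (0.25), Utp14a (-0.12), which activates a helicase of the particle, and Krr1 (-0.084) did not pass.

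Enzymes of the processome cut and remodel the precursor, and none of their 5 genes passed. Fcf1, the nuclease at the start of the small subunit rRNA, was at 68.5 and 52.9 TPM with DMSO and at 90.3 and 81.6 TPM with CX-5461 (difference 0.50, SE 0.14, adjusted p = 0.0593). Both CX-5461 libraries were higher, but the DMSO libraries also differed from each other. Rcl1, a cyclase-like protein that binds the GTPase Bms1, was at 64.7 and 53.4 TPM with DMSO and at 47.4 and 43.8 TPM with CX-5461 (difference -0.36, adjusted p = 0.0894). The helicase gene Ddx52 was at 42.5 and 40.3 TPM and at 43.5 and 47.6 TPM (difference 0.13, adjusted p = 0.360). Bms1 (-0.061) and the helicase gene Ddx10 (-0.035) lay near zero.

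Late 40S maturation proteins stay with the particle up to its last cut. Pno1, which holds the cleavage site at the end of the small subunit rRNA and is the partner of the nuclease Nob1, was at 100.4 and 93.9 TPM with DMSO and at 123 TPM in both CX-5461 libraries. It rose by 27.1% (log2 difference 0.34, SE 0.083, limma adjusted p = 0.0382). Nob1 itself was at 44.9 and 42.6 TPM with DMSO and at 36.0 and 36.4 TPM with CX-5461 (difference -0.27, SE 0.087, adjusted p = 0.0854). The 2 partners stood on opposite sides of zero, and the difference between them was not tested. Ltv1, an export adaptor, was at 67.6 and 64.2 TPM with DMSO and 59.2 and 53.8 TPM with CX-5461 (difference -0.22, adjusted p = 0.154). The GTPase-like Tsr1 (-0.020) and Bysl (0.0067) had overlapping groups.

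**Figure D3:**
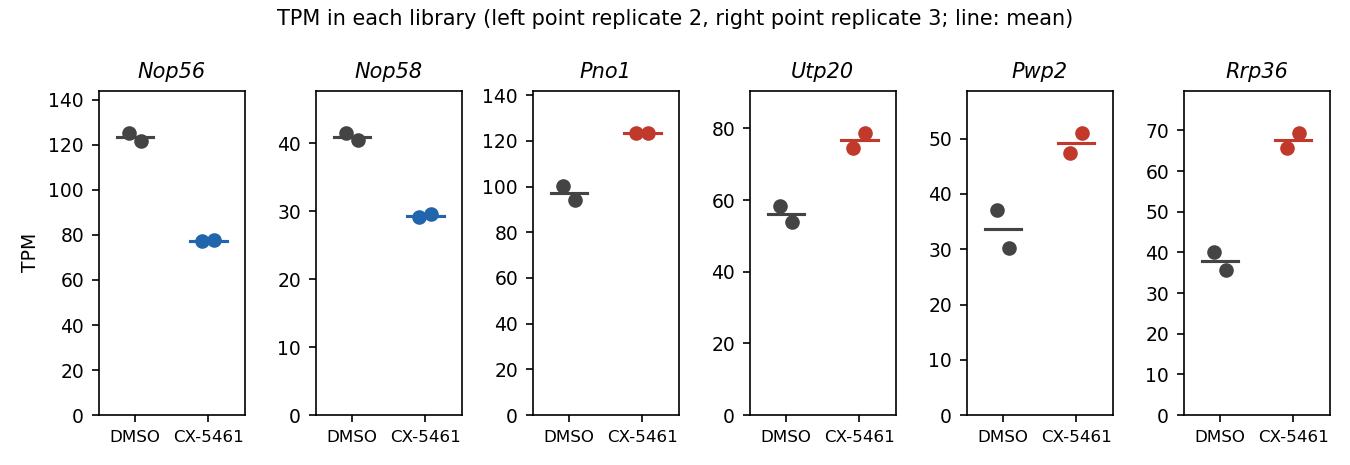
TPM (vertical axes from 0) in each library for the 6 genes that passed at an adjusted p under 0.05, with the mean of each group as a line. DMSO and CX-5461 points are apart in each panel, for example at 122 to 125 against 77.2 to 77.6 TPM for Nop56.

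The calls rest on small numbers of libraries, and calls over all genes also fell with either CX-5461 library left out. With CX-5461 replicate 2 or replicate 3 left out, limma called 0 of the 42 genes, while 9 and 6 genes had an unadjusted p under 0.05. The lone CX-5461 library was then assumed to vary like the DMSO pair, and the adjusted p of Nop56, Rrp36 and Nop58 reached 0.0822, 0.0717 and 0.149 at the most. Without DMSO replicate 3, Nop56, Nop58 and Rrp36 passed and Pwp2, Utp20 and Pno1 did not. Pwp2 and Pno1 lost their call without the filter on low values as well, and Pwp2, Utp20 and Pno1 lost theirs without limma's trend and robust options. Pno1 also missed the threshold under quantile normalization and with a replicate block. Calls were also gained: without DMSO replicate 2 Mphosph10 passed as lower and Imp3 and Fcf1 as higher, with a filter of 5 TPM Mphosph10 and Fcf1 passed, and with a replicate block Fcf1 passed. With voom on recovered read pairs, 9 more genes passed, namely Fcf1 as higher and Wdr75, Utp6, Fbl, Mphosph10, Noc4l, Nol10, Rcl1 and Nob1 as lower. Calls over all genes also rose with voom, to 2259 higher and 2162 lower from 1694 and 1201. Voom was run only on genes with recovered read pairs, so a share of all tested genes is not given for it. The differences of the 6 genes called with all libraries kept their sign under all 14 alternative settings. Their groups did not overlap, so only the scalings and voom could have changed a sign. The other settings could not, and their unchanged sign is no support.

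The order of the messages within a library is free of the scaling between libraries. Relative to the median of the 42 genes in the same library, Nop56 stood at 2.66 and 2.48 times with DMSO and at 1.71 and 1.62 times with CX-5461. Rrp36 stood at 0.851 and 0.724 times with DMSO and at 1.45 times in both CX-5461 libraries. Each thus changed its place among the 42: Nop56 went from rank 2 to rank 7 and Rrp36 from rank 29 to rank 13 by group mean. Pwp2 went from rank 34 to rank 20 and Nop58 from rank 26 to rank 36. At the top, Utp3 (rank 1 with DMSO, rank 3 with CX-5461), Imp3 (ranks 3 and 1) and Pno1 (ranks 4 and 2) stayed among the most abundant. At the bottom, Dcaf13 (ranks 42 and 41), Krr1 (41 and 42) and Utp15 (40 and 40) held the last 3 places in both groups. Within the DMSO group, the levels of Utp3 (119 and 129 TPM), Nop56 (125 and 122 TPM) and Imp3 (138 and 107 TPM) overlapped, so their order at ranks 1 to 3 was not separated by the spread of the libraries.

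DMSO replicate 3, with the largest mitochondrial share, held the lower DMSO value in 34 of the 42 genes. The same count over all tested genes was not made. Median TPM in DMSO replicates 2 and 3 was 47.0 and 49.2 over the 42 genes. Over all tested genes it was 19.0 and 17.6. Rescaling moved the differences of all 42 genes down. After the same rescaling, the median over the 42 genes was -0.088 and that over all tested genes was 0.0020. Wdr75, Fbl, Mphosph10, Noc4l, Rcl1 and Nob1 were then called lower and Fcf1 higher, beside the 6 genes called before. Median-of-ratios scaling called 5 genes higher and 7 lower, with 11.3% of all tested genes called in each direction. Quantile normalization called 3 higher and 8 lower, with 11.2% and 11.3% of all tested genes. Nop56 and Nop58 were lower and Rrp36, Pwp2 and Utp20 higher under each of these.

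**Figure D4:**
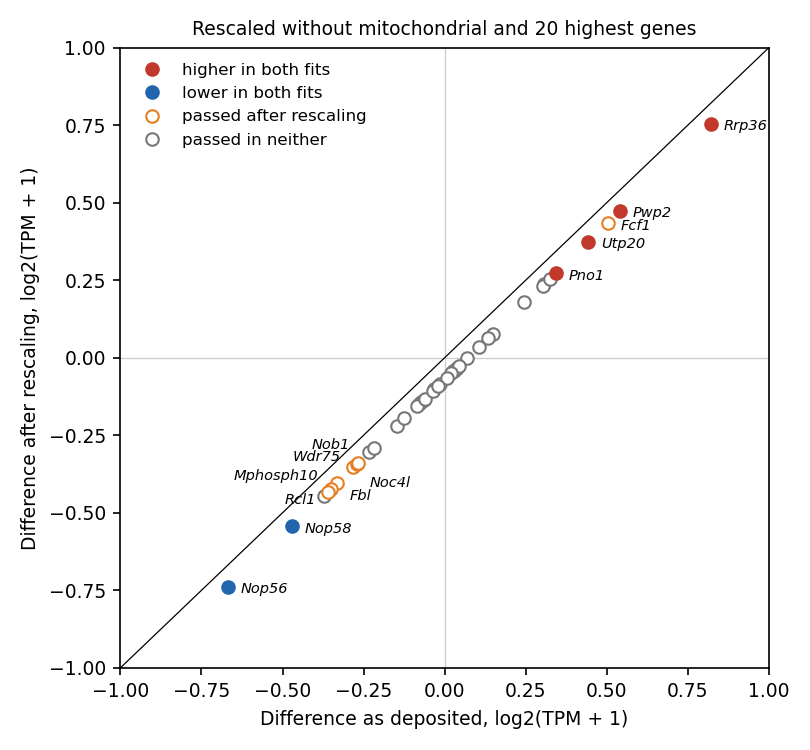
Difference of each of the 42 genes as deposited (horizontal axis) and after rescaling on the remaining genes, with mitochondrially encoded and the 20 most abundant genes removed (vertical axis), both on the log2(TPM + 1) scale, with the line of equality. Points lie just below the line, and 7 genes drawn with an orange edge, among them Fbl, Mphosph10 and Fcf1, passed after rescaling only.

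Position and neighbouring genes differed among the 42. By GENCODE M21 (mm10), Nop56 lies at chromosome 2, 130274430 to 130279313, Nop58 at chromosome 1, 59684971 to 59719044, and Rrp36 at chromosome 17, 46666324 to 46674352. Pwp2 lies at chromosome 10, 78170909 to 78185149, Utp20 at chromosome 10, 88746607 to 88826804, and Pno1 at chromosome 11, 17203198 to 17211568. Of the 42 genes, 4 hold annotated snoRNA genes on their own strand: Nop56 with 5, Nop58 with 4, Wdr43 with 3 and Tsr1 with 2. Their differences were -0.67, -0.47, -0.15 and -0.020, and 2 of the 4 passed as lower. Of all 42 genes 22 had a difference below zero, and 8.21% of all tested genes were called lower, so with 4 genes these values are a description only. Of the snoRNA genes in Nop56, Gm23187 was at 75.8 and 45.2 TPM with DMSO and at 27.8 and 19.0 TPM with CX-5461. It shares 86 bases with annotated exons of its host, so its reads and those of Nop56 cannot be told apart. On the opposite strand, 12 of the 42 genes share at least 100 exon bases with another gene, and the use of strand in counting is not given in the sources used here. The longest such overlaps were those of Tbl3 with Noxo1 (2122 bases), Tsr1 with Srr (1240) and Wdr3 with Spag17 (820). None of the 12 passed, against 14.3% of the 42 genes and 19.8% of all tested genes. With 12 genes this too is a description only.

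Further factors of the same pathway and of the 60S subunit are given by counts. Of 30 other 40S and processome factors, 29 were in the table and all 29 were tested: 2 were higher, 1 was lower and 26 did not pass (10.3% called, against 19.8% of all tested genes, median difference -0.042). Utp14b, a retrogene copy of Utp14a, was at 3.47 and 4.65 TPM with DMSO and at 1.49 and 1.23 TPM with CX-5461 (difference -1.09, SE 0.22, limma adjusted p = 0.0229). At this low level the size depended on the scale, with -1.50 at a pseudocount of 0.1, -0.51 at a pseudocount of 5 and -1.62 with voom on recovered read pairs. Its parent gene Utp14a, at 32.1 and 29.9 TPM with DMSO and 28.6 and 28.1 TPM with CX-5461, did not pass, and reads of the 2 copies may be split between them. Riok3, a kinase of the pre-40S particle, was at 38.3 and 33.3 TPM with DMSO and rose to 47.5 and 49.0 TPM (difference 0.42, adjusted p = 0.0390). Tsr3, which modifies the small subunit rRNA, was at 38.4 and 35.2 TPM and rose to 46.0 and 50.01 TPM (difference 0.38, adjusted p = 0.0477). Rps19bp1 was at 67.5 and 50.7 TPM and at 83.8 and 87.2 TPM with CX-5461, and did not pass (difference 0.54, adjusted p = 0.0533). It did pass as higher with a filter of 5 TPM, under the 3 scalings, with a replicate block and with voom (adjusted p 0.0162 to 0.0461), and without DMSO replicate 2 (0.0143). None of Utp14b, Riok3 and Tsr3 passed without DMSO replicate 3 or without either CX-5461 library, when their adjusted p reached 0.140, 0.240 and 0.294. Tsr3 also missed the threshold without DMSO replicate 2 (0.0532), without a filter, under quantile normalization, after rescaling, without trend and robust options, with a replicate block and with voom (0.0503 to 0.118). Riok3 missed it without a filter, without trend and robust options and with a replicate block (0.0519 to 0.0829). Among 49 assembly factors of the 60S subunit, 2 were higher, 1 was lower and 46 did not pass (6.12% called, against 19.8% of all tested genes). Their median difference was 0.033, against 0.068 over all tested genes.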

How the data were processed

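The authors deposited TPM values for 32230 gene symbols in 4 libraries, and each column sums to 1000000. Per the labels' protocols, mRNA was captured with poly(T) beads, sequenced as paired reads of 150 bases, and reads were cleaned on the BMKCloud platform. The submitters' processing notes name build mm10. Which aligner, counter and gene lengths the authors used is not given in the sources used here. Titles gave the group and replicate number, by which table columns were matched.

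The test was limma 3.58.1 (R 4.3.3) on log2(TPM + 1), for genes whose mean reached 1 TPM, with trend and robust options, no covariate and 2 residual degrees of freedom. Benjamini-Hochberg adjustment covered all 14621 tested genes. An exact permutation test of 2 against 2 libraries cannot go below p = 0.333 and was not used. Read pairs were recovered as TPM times GENCODE M21 exon length divided by the commonest low value of a library, taken as 1 pair. Of 71159 values, 69.6% lay within 0.01 of a multiple of 0.5 pairs, against 4% by chance. The procedure was also run on simulated read pairs, with the same extra scatter for every gene and no shift in composition between libraries. That run was therefore not used as support for the calls given here. The genes and lists were chosen with earlier results of these data known. Of the genes in each role, those with the smallest adjusted p (3, or 2 in roles of 4 or fewer genes) are given by library and the rest by difference, and of other factors the first 4. Alternatives were other pseudocounts, filters, scalings and variance options, a replicate block, limma's voom on recovered pairs, and each library left out.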

Additional observations from a re-analysis of the deposited data

How the results depend on the processing

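The 2 lower and 4 higher calls among the 42 genes held with pseudocounts of 0.1 and 5. Higher calls numbered 2 without a filter and 1 without limma's trend and robust options. Lower calls numbered 7 under median-of-ratios scaling, 8 under quantile normalization, 8 after rescaling and 10 with voom on recovered pairs, with the cause not tested. With 1 library left out, higher calls ran from 0 to 6, lower calls from 0 to 3, and calls over all genes from 601 to 2938 (2895 with all libraries, 1874 without a filter and 4421 with voom). The median of the 42 genes was -0.081, -0.097, -0.088 and -0.071 under the 3 scalings and voom, and -0.084 to 0.042 with 1 library left out. Lower calls among the other 40S factors were 0 with a filter of 5 TPM (28 tested in limma, Utp14b no longer among them, with 0 lower and 5 higher at an unadjusted p under 0.05), 2 under quantile normalization and 2 with voom, and 0 to 1 with 1 library left out. The replicate block gave 4 higher and 2 lower genes (Fcf1 in place of Pno1) and 2689 calls over all genes, and same-numbered libraries deviated with a correlation of 0.031 across genes, so the number was not taken as a pairing. Genes near zero changed sign without passing. Under median-of-ratios scaling, quantile normalization, rescaling and voom, differences were -0.036, -0.070, -0.043 and -0.027 for Utp4, -0.037, -0.045, -0.044 and -0.027 for Heatr1, -0.025, -0.028, -0.032 and -0.015 for Wdr3, -0.029, -0.034, -0.035 and -0.018 for Wdr36, -0.021, -0.032, -0.027 and -0.011 for Rrp7a, -0.043, -0.042, -0.049 and -0.033 for Emg1, and -0.058, -0.094, -0.065 and -0.048 for Bysl. Nol11 was at -0.00088 after rescaling and Nop14 at -0.0052 under quantile normalization. With 1 library left out, differences ran from -0.038 to 0.10 for Utp4, -0.17 to 0.028 for Utp15, -0.11 to 0.16 for Heatr1, -0.016 to 0.15 for Nol11, -0.23 to 0.20 for Tbl3, -0.077 to 0.014 for Utp18, -0.060 to 0.14 for Wdr3, -0.066 to 0.14 for Wdr36, -0.033 to 0.24 for Nop14, -0.089 to 0.13 for Emg1, -0.19 to 0.018 for Krr1, -0.12 to 0.050 for Ddx10, -0.091 to 0.10 for Bysl, and -0.13 to 0.093 for Tsr1. With 2 libraries per group the 95% intervals of single genes spanned 0.20 to 0.42 on either side, which limits what could be called.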
